A study of Mus musculus with 24 samples.

Results

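The genes described here are 10 imprinted genes that are active in brain, Peg3, Snrpn, Ndn, Snhg14, Kcnq1ot1, Grb10, Ube3a, Magel2, Plagl1 and Zdbf2, taken by name from the 33902 symbols of an snRNA-seq count table of the ventral hippocampus. The libraries came from adult male mice of 10 to 16 weeks of the strain C57BL/6J (B6) or DBA/2J (D2). There were 2 snRNA-seq and 2 snATAC-seq libraries per strain, each from about 2 pooled animals, and the 16 methylation samples of the series were not analysed here. Strains were compared in granule neurons of the dentate gyrus (Exc-DG) alone, the type with the most nuclei, and library 2 and library 3 below are the numbers in the column names. Levels across cell types are given for 13 types, as 1 sum per type over all libraries and without a test.

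An imprinted gene is transcribed mainly from the copy inherited from a given parent, according to a methylation mark set in the germ line of that parent. Imprinted genes lie in clusters that share a control region, and in brain the choice of copy can differ between neurons and glia: Ube3a is read from the maternal copy in neurons, where the noncoding Snhg14 runs against it from the paternal copy, and from both copies in glia. Both parents of an inbred mouse carry the same sequence, so the parental copy behind a count cannot be read in these data, and every value below is the sum of both copies.

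Of the members, 7 lie on chromosome 7 (GRCm38, gene models of GENCODE vM21). The Prader-Willi and Angelman region holds 5 of them. Ube3a (chr7:59228750-59311536, plus strand) encodes an E3 ubiquitin ligase, and Snhg14 (chr7:59307924-59975759, minus strand) is the long noncoding host of clusters of small nucleolar RNAs. Snrpn (chr7:59982495-60140219, minus strand) encodes a core splicing protein of neurons. Ndn (chr7:62346569-62350262, plus strand) and Magel2 (chr7:62377010-62381640, plus strand) encode proteins of the MAGE family. Peg3 (chr7:6703892-6730431, minus strand) encodes a zinc finger protein, and Kcnq1ot1 (chr7:143203458-143296549, minus strand) is a noncoding RNA that runs against Kcnq1. Grb10 (chr11:11930508-12038683, minus strand) encodes an adaptor of insulin receptor signalling. Plagl1 (chr10:13060504-13131694, plus strand) encodes a zinc finger transcription factor, and Zdbf2 (chr1:63273265-63314576, plus strand) a protein with a DBF-type zinc finger.

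The 250 bases before a RefSeq start site (GRCm38) were read for all 10 members, in 14 distinct windows, of which 11 overlapped an snATAC-seq peak. The windows differed widely in CG dinucleotides, whose methylation was not examined here. Those printed here are the windows of Ndn and Magel2, whose peaks differed between the strains, that of Ube3a, whose main start-site peak did not pass the threshold, and that of Grb10, the richest in CG. They are shown 5′ to 3′ on the strand of the gene, with every CG in capitals. Ndn (chr7:62348027-62348276, plus strand) has 5 CG and Magel2 (chr7:62376729-62376978, plus strand) has 7. Ube3a (chr7:59228500-59228749, plus strand) has 24 and Grb10 (chr11:12037421-12037670, minus strand) has 40.
Ndn: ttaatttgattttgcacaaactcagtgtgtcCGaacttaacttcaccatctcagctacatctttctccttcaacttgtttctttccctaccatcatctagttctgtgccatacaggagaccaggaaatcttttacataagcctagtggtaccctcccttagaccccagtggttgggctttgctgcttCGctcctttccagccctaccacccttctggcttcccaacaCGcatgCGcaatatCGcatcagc
Magel2: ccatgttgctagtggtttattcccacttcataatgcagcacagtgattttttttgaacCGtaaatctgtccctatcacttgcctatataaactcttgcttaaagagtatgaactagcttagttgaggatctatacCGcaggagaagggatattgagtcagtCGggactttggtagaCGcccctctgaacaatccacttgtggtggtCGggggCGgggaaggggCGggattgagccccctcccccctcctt
Ube3a: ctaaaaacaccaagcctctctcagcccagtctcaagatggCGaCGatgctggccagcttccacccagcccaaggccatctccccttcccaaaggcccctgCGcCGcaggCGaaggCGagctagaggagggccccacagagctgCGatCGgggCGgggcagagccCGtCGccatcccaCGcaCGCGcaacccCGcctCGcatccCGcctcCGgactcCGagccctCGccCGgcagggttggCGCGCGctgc
Grb10: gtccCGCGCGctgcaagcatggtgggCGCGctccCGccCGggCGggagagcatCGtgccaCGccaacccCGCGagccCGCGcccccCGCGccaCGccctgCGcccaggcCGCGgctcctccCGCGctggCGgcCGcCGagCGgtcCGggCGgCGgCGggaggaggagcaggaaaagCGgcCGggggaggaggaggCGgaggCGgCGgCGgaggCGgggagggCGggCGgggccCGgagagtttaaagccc
Among all 32817 distinct promoter windows the median is 6 CG. At least as many CG as in the window of Grb10 stood in 1.31% of them, as in that of Ube3a in 12.0%, as in that of Magel2 in 46.3% and as in that of Ndn in 55.6%. The letters TGCCGC, on either strand, are the core of the motif of ZFP57, a protein known to bind methylated imprinting control regions. They stood in 2 of the 14 windows, one of Zdbf2 and that of Plagl1, and in 8.68% of all promoter windows. These are the letters of the B6 reference, and D2 sequence was not examined.

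The Exc-DG columns held 7895793 to 11352265 snRNA-seq counts per library and 18111758 to 27815541 snATAC-seq counts. The 13 cell type sums held 1610779 (NN-VLMC) to 38711659 (Exc-DG) counts, from 490 (Exc-Cdh12) to 5101 (Exc-DG) nuclei. The names of the cell types were the authors' and were checked against marker genes. Slc17a7, Prox1, Aqp4, Mog, Pdgfra, Csf1r and Dcn were each highest in a type of their name, although Dcn, a marker of vascular and leptomeningeal cells, was at 369 CPM (counts scaled to library size) in NN-VLMC and 248 CPM in Exc-CA1-Camk2d, and Prox1 at 299 CPM in Exc-DG and 194 CPM in NN-ODC. Of the interneuron markers Gad2 reached at most 9.29 CPM, while Adarb2 was at 1689 CPM in NN-OPC and 1140 CPM in Exc-DG.

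The strain comparison of the members in Exc-DG asks whether the sum of both copies of an imprinted gene differs between B6 and D2. Ndn was higher in D2, and Ube3a, Snhg14 and Plagl1 were lower. The calls of Ube3a and Snhg14 were lost, and their signs turned, when neighbouring same-strand symbols with counts in D2 only were added (0.079 and 0.020 on the log2 scale). Such an addition can only raise D2, and the largest symbol added to Ube3a, Gm44829, lies past the end of the gene. The call of Plagl1 was lost in DESeq2 (adjusted p = 0.298). Of the 10 members 9 passed the filter on low counts, and 4 of the 9 passed an adjusted p under 0.05 (edgeR, quasi-likelihood test, Benjamini-Hochberg over all 17723 symbols tested). Over all symbols 36.0% passed, and the median log2 fold change of all symbols was 0.06. The symbols tested were not confined to those with counts in both strains, which can raise this share. For Plagl1, tested among symbols with counts in both strains, p was 0.00896 and adjusted p 0.0383 (0.00995 and 0.0308 over all, edgeR). The background among those symbols is therefore lower. Its share is not given here, so whether the members stood above it was not tested. The libraries of the strains did not overlap for 7 of the 9, and for 66.7% of all symbols tested. Symbols without counts in both strains can raise the latter share as well.

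**Figure D1:**
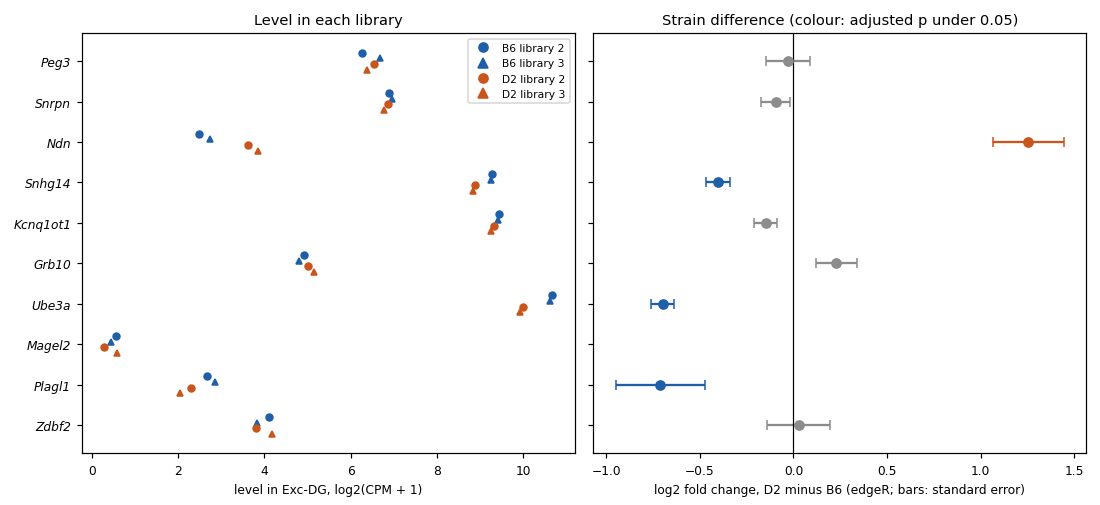
Left, level of each of the 10 imprinted genes in the 4 Exc-DG libraries as log2(CPM + 1), with 1 symbol per library (B6 blue, D2 orange). Right, log2 fold change (D2 minus B6) with its standard error, orange or blue where the adjusted p was under 0.05 and grey otherwise. Ndn lies right of 0 at 1.25, and Ube3a (-0.70), Plagl1 (-0.71) and Snhg14 (-0.40) lie left of it.

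Ndn encodes necdin, a protein of postmitotic neurons. The B6 libraries held 4.57 and 5.66 CPM of it and the D2 libraries 11.3 and 13.3 CPM. The strains did not overlap, and D2 was 2.39-fold higher (log2 fold change 1.25, SE 0.19, adjusted p = 9.08e-05, edgeR). The call rested on 111 counts in B6 and 208 in D2, and it held in DESeq2 (adjusted p = 0.00132). With each library left out in turn, the log2 fold change was 1.11 to 1.42. Whether both strains were counted over the same gene model of Ndn was not tested by these checks.

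The start of Ndn was also more accessible in D2. Its RefSeq start falls in the peak chr7:62347944-62349182, which lies 1375 bases from the GENCODE start of the gene and overlaps the Ndn window printed above. RefSeq starts were added after the data were seen, so this peak is outside the planned set. They brought in 6 peaks, at Snrpn, Zdbf2 and Ndn, of which 1 passed (edgeR), this Ndn peak. Its accessibility was 5.43 and 5.99 CPM in the B6 libraries, against 10.6 and 9.87 CPM in those of D2 (log2 fold change 0.84, SE 0.13, adjusted p = 2.3e-08, edgeR). The strains did not overlap here either, and the peak also passed in DESeq2.

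Magel2, the neighbour of Ndn, gave only 9 counts in B6 and 6 in D2 in Exc-DG, 0.223 to 0.498 CPM per library, and did not pass the filter on low counts. With a filter of at least 1 count its log2 fold change was -0.25 (adjusted p = 0.867, edgeR), and with DESeq2 it was -0.24 (adjusted p = 0.971). Its start-site peak chr7:62376540-62378087 was more accessible in D2, with 2.63 and 3.09 CPM in B6 and 4.86 and 4.83 CPM in D2 (log2 fold change 0.76, SE 0.18, adjusted p = 0.000906, edgeR). The libraries did not overlap, but the peak did not pass in DESeq2 (adjusted p = 0.179) or without B6 library 2 (adjusted p = 0.0787, edgeR).

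Ube3a and Snhg14 were both lower in D2. For Ube3a the B6 libraries stood at 1632 and 1577 CPM and the D2 libraries at 1016 and 961 CPM (log2 fold change -0.70, SE 0.06, adjusted p = 3.9e-07, edgeR). Snhg14 reached 619 and 605 CPM in B6 and 472 and 454 CPM in D2 (log2 fold change -0.40, SE 0.06, adjusted p = 0.000118, edgeR). Neither gene overlapped between the strains, and both calls held in DESeq2 and without any 1 library.

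Both differences went with a difference in which symbols had counts. Over the whole table, 6988 symbols had Exc-DG counts in D2 only and 1541 in B6 only. In D2 the symbol Gm44829 (chr7:59318631-59321823), on the strand of Ube3a and 7094 bases past its end, held 699 and 708 CPM, and it had 0 counts in B6. A230103L15Rik (chr7:59327318-59331189), inside Snhg14 and on its strand, held 143 and 142 CPM in D2 and 0 counts in B6. Smaller ones were Gm44831 inside Snhg14 (256 counts in D2) and Gm44830 inside Ube3a (47 counts in D2). On the strand opposite to Ube3a, 4 more symbols that overlap it had D2 counts and 0 in B6, 9330162G02Rik (7730 counts), Gm44560 (1595), Gm44562 (1379) and Gm44559 (710), and these were not added to any gene.

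**Figure D2:**
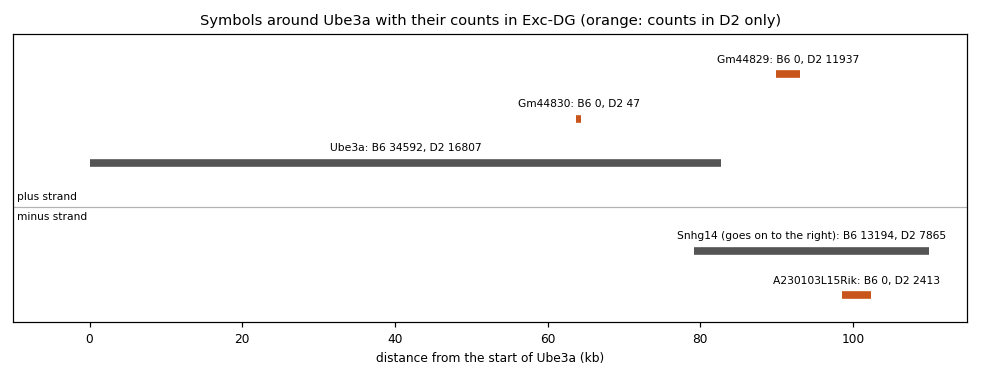
Symbols around Ube3a by distance from its start (kb), plus strand above the line and minus strand below it, each with its Exc-DG counts per strain; symbols in orange had counts in D2 only. Gm44829 past the end of Ube3a (11937 counts in D2) and A230103L15Rik inside Snhg14 (2413 counts in D2) have 0 counts in B6.

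The comparison was therefore repeated, as an alternative chosen after the data were seen. Same-strand symbols that had counts in D2 only were added to their gene, inside it or up to 10 kb past its end. Symbols chosen in this way can only raise D2, so the direction of the shift was fixed by the choice. Of those added to Ube3a, Gm44829 (11937 counts in D2) lies outside the gene and Gm44830 (47 counts) inside it. The sums of the strains may therefore cover unlike stretches, and near-equal levels do not show equal transcription of Ube3a. Gm38393, which reaches into Snhg14 on its strand and was counted in both strains, was not added. Ube3a then stood at 1718 and 1671 CPM in D2, beside 1632 and 1577 CPM in B6, and its log2 fold change turned to 0.079 (SE 0.06, adjusted p = 0.324, edgeR). Snhg14 came to 629 and 611 CPM in D2, beside 619 and 605 CPM in B6 (log2 fold change 0.020, SE 0.06, adjusted p = 0.839, edgeR). With these symbols added, 1 member in place of 3 was lower in D2. A lower level of these transcripts in D2 and the list of symbols counted in that strain cannot be told apart. The main start-site peak of Ube3a, chr7:59227895-59229908, had 48.0 and 51.2 CPM in B6 and 51.7 and 49.5 CPM in D2, and its log2 fold change of 0.03 (SE 0.06) did not pass (adjusted p = 0.904, edgeR).

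**Figure D3:**
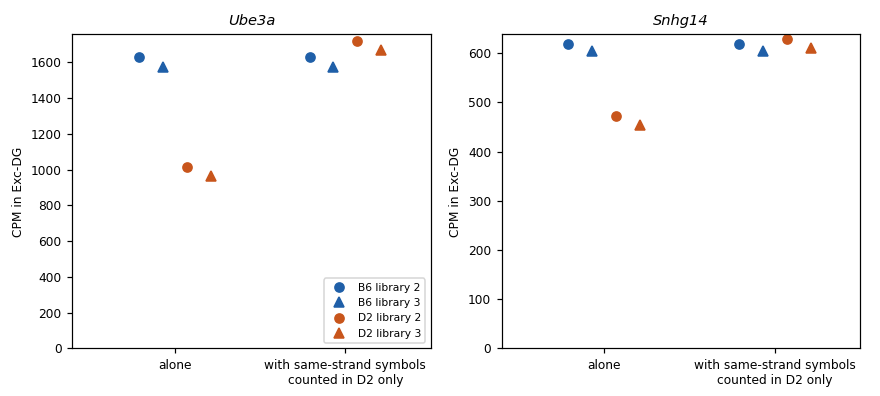
Ube3a (left) and Snhg14 (right) in CPM in the 4 Exc-DG libraries (B6 blue, D2 orange), alone and with the same-strand symbols that had counts in D2 only added. Alone, both D2 points of Ube3a (961 and 1016 CPM) lie below the B6 points, and with the added symbols they lie above them (1671 and 1718 CPM).

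Plagl1, the tested member with the fewest counts, was lower in D2, from 5.35 and 6.19 CPM in B6 to 3.91 and 3.11 CPM in D2 (log2 fold change -0.71, SE 0.24, adjusted p = 0.0308, edgeR). The call rested on 125 counts in B6 and 60 in D2, and the libraries did not overlap. The call was lost in DESeq2 (adjusted p = 0.298), without B6 library 3 (adjusted p = 0.135, edgeR) and without D2 library 3 (adjusted p = 0.180, edgeR). At its most upstream start the peak chr10:13059890-13061716 was less accessible in D2, with 6.68 and 7.10 CPM in B6 and 3.73 and 4.43 CPM in D2 (log2 fold change -0.73, SE 0.15, adjusted p = 9.3e-05, edgeR, and 0.0582 with DESeq2). The peak at its CG-rich start, chr10:13089934-13091332, was at 15.6 and 15.4 CPM in B6 and 15.8 and 16.8 CPM in D2 and did not pass (adjusted p = 0.738, edgeR).

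The other 5 members did not pass. Kcnq1ot1 had 696 and 679 CPM in B6 and 636 and 605 CPM in D2, which did not overlap (log2 fold change -0.15, SE 0.06, adjusted p = 0.0785, edgeR), and it passed with a filter of at least 1 count (adjusted p = 0.0313, edgeR) and with the replicate block (adjusted p = 0.0405, edgeR). The symbols with counts in D2 only that overlap it are on the opposite strand, the largest being Gm27803 with 893 counts. Grb10 lay the other way, with 29.2 and 27.0 CPM in B6 and 31.4 and 34.5 CPM in D2 (log2 fold change 0.23, SE 0.11, adjusted p = 0.117, edgeR). Snrpn had 117 and 123 CPM in B6 and 116 and 109 CPM in D2 (log2 fold change -0.09, SE 0.08, adjusted p = 0.372, edgeR), and the strains did not overlap. Gm38393 (chr7:59974149-60005064), which covers the end of Snrpn on its strand, was counted in both strains (632 counts in B6 and 726 in D2), so the division of reads between them is uncertain.

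Peg3 and Zdbf2 overlapped between the strains. The B6 libraries of Peg3 were as far apart as 76.0 and 101 CPM, and those of D2 held 92.3 and 81.9 CPM (log2 fold change -0.03, SE 0.12, adjusted p = 0.881, edgeR). Zdbf2 had 16.4 and 13.2 CPM in B6 and 12.96 and 17.2 CPM in D2 (log2 fold change 0.03, SE 0.17, adjusted p = 0.921, edgeR). Which library was left out turned the sign of both, with no call.

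Accessibility was read in the same cell type, at 23 peaks within 1 kb of a GENCODE start of a member. All were tested and 4 passed, while 5.97% of all 297387 peaks tested did (edgeR). They were the peaks of Magel2 and Plagl1 above and a pair of sparse peaks at starts of Snhg14, both lower in D2. The peak chr7:59705782-59706239 had 17 counts in B6 and 0 in D2. With 3 counts in place of 0 over both D2 libraries, the ratio of B6 to D2, scaled for depth, was 5.53. This ratio leaves out the counting error of the B6 counts and is no lower bound. The peak did not pass without D2 library 3. It entered the test through its B6 counts alone, and with only peaks that had counts in both strains tested, 3 start-site peaks passed. The peak chr7:59976120-59976583 had 42 counts in all, with 0.770 and 0.599 CPM in B6 and 0.339 and 0.145 CPM in D2 (log2 fold change -1.61, SE 0.52, adjusted p = 0.0382, edgeR). It passed neither without B6 library 2, B6 library 3 or D2 library 3 nor with the replicate block.

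**Figure D4:**
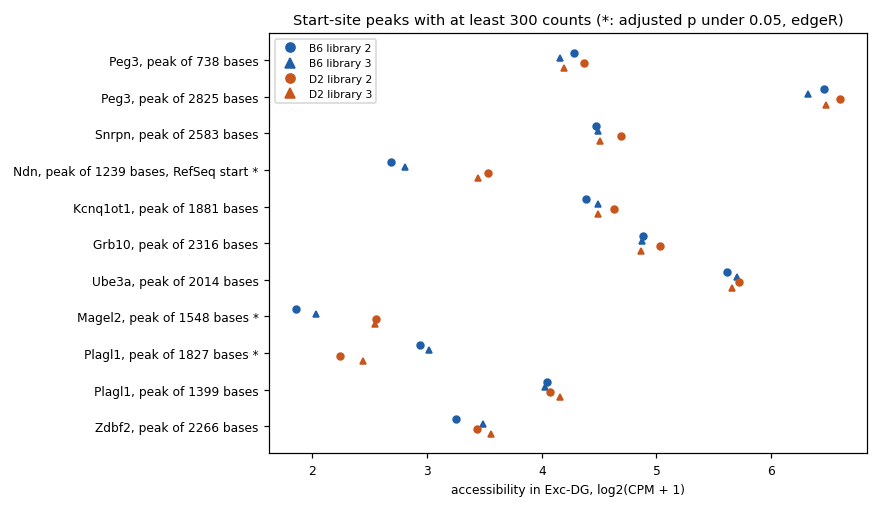
Accessibility of the 11 start-site peaks with at least 300 counts in the 4 Exc-DG libraries, as log2(CPM + 1), named by gene and peak length, with 1 symbol per library (B6 blue, D2 orange) and a star where the adjusted p was under 0.05 in edgeR. D2 lies right of B6 for the peaks of Ndn and Magel2, and left of it for the upstream peak of Plagl1.

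The start-site peaks of Peg3, Kcnq1ot1, Grb10, Snrpn and Zdbf2 did not pass. The strongest peak at a member, chr7:6727029-6729853 at Peg3, had 87.2 and 79.1 CPM in B6 and 95.8 and 88.3 CPM in D2 (log2 fold change 0.14, SE 0.06, adjusted p = 0.124, edgeR), and it passed without D2 library 3 (adjusted p = 0.00595, edgeR). That of Snrpn, chr7:60002687-60005269, had 21.3 and 21.5 CPM in B6 and 24.8 and 21.8 CPM in D2 (adjusted p = 0.558, edgeR). The number of peaks past the threshold was 1 without B6 library 2 and 2 without B6 library 3, where the peak with 17 counts had too few to test. DESeq2 called 0 of the 23 peaks, with 3 at an unadjusted p under 0.05, and gave 14 of them an adjusted p.

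Across cell types, the imprinted genes fell into those with higher levels in excitatory neurons than in glia and vascular cells and those with other patterns. The levels of all 8 excitatory types lay above those of all 5 non-neuronal types for 5 of the 10 genes, Ube3a, Snhg14, Snrpn, Kcnq1ot1 and Zdbf2. Among the 16266 symbols at 5 CPM or more in some type and with Exc-DG counts in both strains, which hold all members but Magel2, this was so for 9.91%, and the difference between these shares was not tested. These levels are CPM of 1 sum per type over both strains, with no replicate check. Where an interval is given, it is the exact Poisson interval at 95% and covers counting error only. Genes are compared here only with themselves.

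**Figure D5:**
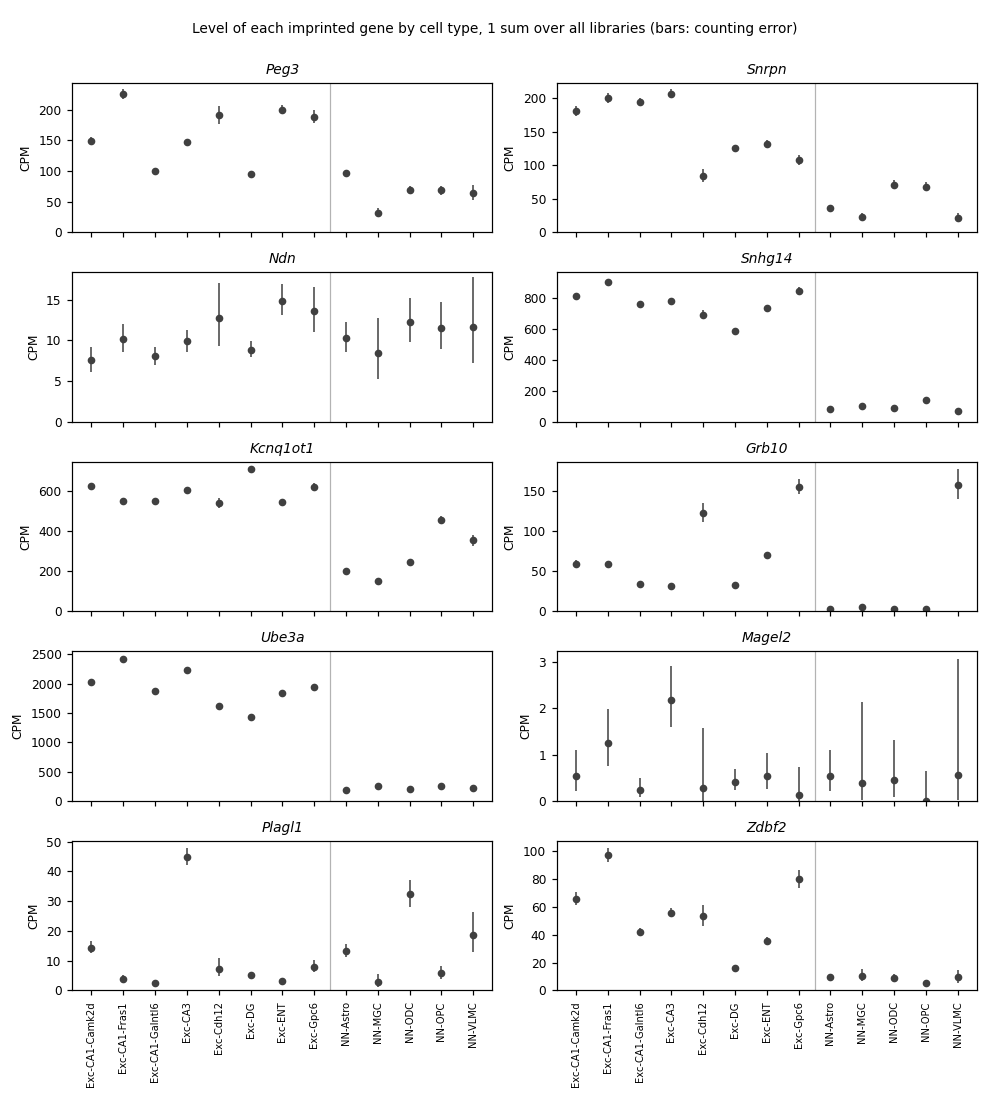
Level of each of the 10 imprinted genes in CPM in 13 cell types, 1 point per type for the sum over all libraries, with 95% counting intervals and a line between excitatory types on the left and non-neuronal types on the right. Ube3a and Snhg14 drop from excitatory to non-neuronal types, Ndn is near even, and Grb10 has separate high points in Exc-Gpc6, Exc-Cdh12 and NN-VLMC.

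Ube3a was highest in Exc-CA1-Fras1, at 2411 CPM (2386 to 2437), and lowest in astrocytes (NN-Astro), at 192 CPM (185 to 200), which overlapped with oligodendrocytes (NN-ODC) at 197 CPM (187 to 208). Per 1000 nuclei NN-ODC was the lowest, at 461 counts against 571 in NN-Astro. Its median was 1916 CPM over excitatory and 217 CPM over non-neuronal types, a ratio of 8.83. Snhg14, transcribed from the opposite strand, had medians of 771 and 89.7 CPM, a ratio of 8.60. Per 1000 nuclei the medians of Ube3a were 15321 and 608 counts. Among excitatory types Exc-DG was the lowest for both genes, at 1428 and 585 CPM. These sums do not hold the D2-only symbols described above. Over the 13 types the log2 levels of both genes had a Pearson r of 0.99, a description of points that share libraries.

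Snrpn was highest in Exc-CA3 (206 CPM, 200 to 213), within counting error of Exc-CA1-Fras1, and lowest in NN-VLMC (21.5 CPM, 15.3 to 29.4), within counting error of NN-MGC. NN-ODC and oligodendrocyte precursors (NN-OPC), at 71.1 and 67.8 CPM, stood next to the lowest excitatory type, Exc-Cdh12, at 83.5 CPM, and the intervals of Exc-Cdh12 and NN-ODC overlapped. Kcnq1ot1 was highest in Exc-DG (705 CPM, 696 to 714) and otherwise ran from 540 to 622 CPM in excitatory types, with NN-OPC next at 455 CPM and microglia (NN-MGC) lowest at 149 CPM. Per 1000 nuclei Exc-CA3 was first (5819 counts) and Exc-DG came after 3 types (4975 counts). Zdbf2 ran from 97.4 CPM in Exc-CA1-Fras1 to 5.41 CPM in NN-OPC, with Exc-DG (15.9 CPM) next to the non-neuronal types. The intervals of Exc-DG (14.6 to 17.2) and NN-MGC (10.7 CPM, 7.13 to 15.5) overlapped for Zdbf2.

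Peg3 was highest in Exc-CA1-Fras1, at 225 CPM (218 to 233), and lowest in microglia, at 31.8 CPM (25.3 to 39.4). Astrocytes, at 96.4 CPM, stood between Exc-CA1-Galntl6 (100.1 CPM) and Exc-DG (94.8 CPM), with overlapping intervals. Ndn had medians of 10.0 CPM in excitatory and 11.5 CPM in non-neuronal types. All 12 pairs of neighbours in its order overlapped within counting error. Per 1000 nuclei its medians were 88.9 and 30.6 counts, so the order of these 2 classes turned with the scale.

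Grb10, Plagl1 and Magel2 had patterns of their own. Grb10 was high in vascular and leptomeningeal cells (NN-VLMC, 158 CPM, 140 to 177), in Exc-Gpc6 (155 CPM, 147 to 164) and in Exc-Cdh12 (123 CPM, 111 to 135), and at 2.79 to 4.98 CPM in the other 4 non-neuronal types. Plagl1 was highest in Exc-CA3 (45.0 CPM, 42.1 to 47.9) and next in oligodendrocytes (32.3 CPM, 28.2 to 37.0). Its median over excitatory types, 6.24 CPM, was below that over non-neuronal types, 13.3 CPM, while per 1000 nuclei the medians were 44.2 and 39.6 counts, the other order. Magel2 had 46 counts in Exc-CA3 (2.18 CPM, 1.60 to 2.91) and 0 to 18 in each other type, and all neighbours in its order overlapped within counting error.

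For each member the 2 genes with the most similar levels over the 13 cell types, among 16257 candidates, are given with the Pearson r of log2 CPM as a description. They were Afg3l2 and Rufy2 for Peg3 (0.94 and 0.94), Il4 and Sympk for Snrpn (0.98 and 0.98), and 2310057M21Rik and Lmbrd1 for Ndn (0.83 and 0.79). For Snhg14 they were Gm16105 and Miat (0.99 and 0.99), for Kcnq1ot1 Appl1 and Ppp1r12b (0.98 and 0.97), and for Grb10 Ecpas and 9330198N18Rik (0.95 and 0.94). For Ube3a they were Caln1 and Syt1 (0.99 and 0.99), and for Zdbf2 Stmn2 and Poln (0.97 and 0.97). Likeness was lower for Magel2, with Map2k2 and Phb2 (0.87 and 0.79), and for Plagl1, with Fancc and Slc25a48 (0.80 and 0.79).

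The wider set of imprinted genes was read in Exc-DG from a list of 42 others. Of these, 29 were tested, 8 were higher and 3 lower in D2, and the median log2 fold change was 0.17, beside 0.06 over all symbols. The share past the threshold was 37.9%, beside 36.0% of all symbols, a background that symbols without counts in both strains can raise. By parental copy, 4 of 12 genes read from the maternal copy and 5 of 12 read from the paternal copy passed.

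The paternally expressed Zrsr1, a splicing factor gene that lies within Commd1 on the opposite strand, had 11.0 and 13.4 CPM in B6 and 30.5 and 30.3 CPM in D2 (log2 fold change 1.31, SE 0.13, adjusted p = 1.7e-06, edgeR). Its host Commd1, known as maternally biased in brain, had 31.0 and 34.7 CPM in B6 and 5.14 and 3.74 CPM in D2 (log2 fold change -2.87, SE 0.17, adjusted p = 5.7e-09, edgeR). Rasgrf1, a paternally expressed exchange factor of Ras, had 401 and 419 CPM in B6 and 567 and 746 CPM in D2 (log2 fold change 0.68, SE 0.10, adjusted p = 6.6e-05, edgeR). In none of these 3 did the strains overlap. They were named for their calls and fold changes in the same libraries, so this adds no support. Of all symbols tested, 66.7% did not overlap either, a share that symbols without counts in both strains can raise.

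Also higher were Nnat (log2 fold change 0.47), Copg2 (0.36) and Impact (0.31), and also lower were Ago2 (-0.31) and Ppp1r9a (-0.20), which holds same-strand symbols with counts in D2 only, the largest being Gm26814 with 398 counts. Without D2 library 3 the genes higher in D2 were 4, and without D2 library 2 the genes lower in D2 were 1. Left out in turn, a library ended the call of Ago2 (D2 library 2), Copg2 (B6 library 3 or D2 library 2), Impact (D2 library 3) and Ppp1r9a (every library but B6 library 3).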

How the data were processed

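Nuclei of the ventral hippocampus were profiled by snRNA-seq and snATAC-seq (10x Genomics). Per the paper's methods and the submitters' processing notes, the authors mapped reads with Cell Ranger 6.0.2 (introns retained) and Cell Ranger ATAC 2.0.0, against mm10 for B6 and an mm10 with D2 single-nucleotide variants swapped in for D2. They called peaks per sample, merged them, removed potential doublets of the snRNA-seq with DoubletFinder, assigned cell types (Seurat 4.0.5 is listed) and deposited raw counts summed over the nuclei of each cell type and library, with the number of nuclei. The release of the gene annotation, and whether it was the same for both strains, is not given in the sources used here.

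Column names gave the strain and a library number (2 or 3) that differs from the replicate numbers of the labels (1 or 2), so columns could be placed in a strain but on none of its samples. Every cell type has 2 columns per strain. No more columns per strain were compared than it has samples in a table, and the 4 Exc-DG columns were taken, so the restriction to Exc-DG was a choice and not a property of the data. The columns of the 8 excitatory and 5 non-neuronal types were summed over all libraries, as 1 level per type with no SD. The 16 snRNA-seq columns of inhibitory and Cajal-Retzius cells and 56 snATAC-seq columns of other types were not used. The planned tests in other cell types, of the average over cell types, of dependence on the cell type and of neurons against non-neuronal types are not reported under this limit, although they had been computed before the columns were set aside.

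Counts were tested with edgeR 4.0.16 (R 4.3.3, TMM, filterByExpr or at least 10 counts for peaks, quasi-likelihood F test, no covariate) and DESeq2 1.42.0 as an alternative, with Benjamini-Hochberg adjustment over all features tested. An exact permutation test of 2 against 2 reaches p = 0.33 at best. Libraries pooled about 2 animals. The p-values rest on the spread between libraries, which the fits moderate over all features tested, and do not measure the spread between single animals. Standard errors were derived from each log2 fold change and its F value. The fits were tested on simulated counts. Of the 2-fold changes put into snRNA-seq counts, edgeR recovered 91% and DESeq2 73%, and of those in snATAC-seq counts 63% and 34%. Both recovered fewer of the smaller changes. Of the snRNA-seq calls, 6.25% were false with edgeR and 0.952% with DESeq2. A difference that did not pass is therefore not shown to be absent. Use of strand in counting is not stated in the sources used here, so reads of overlapping opposite genes (the ends of Ube3a and Snhg14, Zrsr1 and Commd1) may not be separable. GENCODE vM21 gave gene models, and RefSeq (GRCm38) the promoter sequences. Named are all 10 members, the 2 most similar genes of each (over types summed over libraries, in place of the planned mean of libraries), and of the wider imprinted list up to 5 called genes in each direction at 5 CPM or more with counts in every library. The members and gene lists were chosen with earlier results of these data known.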

Additional observations from a re-analysis of the deposited data

How the results depend on the processing

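Of 263 recomputed values for 27 results, all in Exc-DG, 228 kept their direction and side of the threshold or their size, 20 lost a call, 2 gained one, 6 changed sign and 7 counts moved. A count was taken as kept within a set ratio of the main count, so kept counts could differ. Members lower in D2, for example, were 3 in the main setting and 2 in DESeq2. The setting with same-strand symbols added touched the counts of Ube3a and Snhg14 only, so for other genes its agreement was all but fixed in advance. With DESeq2 the listed genes higher in D2 were 5 and the start-site peaks 0. Adding same-strand symbols with counts in D2 only, which can only raise D2, left 1 member lower in D2. Snhg14 became 0.020 and Ube3a 0.079 on the log2 scale. With each library left out in turn, 1 to 1 members were higher and 2 to 3 lower in D2, 4 to 7 listed genes were higher and 1 to 3 lower, and 1 to 4 peaks passed. Peg3 then ran from -0.22 to 0.20, with 0.056 without D2 library 3, and Zdbf2 from -0.18 to 0.23, with -0.13 without B6 library 3. The causes were not tested.

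Same-numbered libraries did not deviate together (Pearson r of their deviations -0.055). A single correlation cannot settle whether they were prepared as pairs. A replicate block gave 1 member higher and 4 lower in D2, 9 listed genes higher and 3 lower, and 3 peaks. Where 1 library of a strain is left out, the other is assumed to vary like the libraries of the other strain. The alternatives for tests in other cell types, the average over cell types, dependence on the cell type and neurons against non-neuronal types (the minimum of nuclei and the prior count among them) are not given, since those results are not reported. Depth limits Magel2, Plagl1 and Ndn.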
